A study of Mus musculus with 2 samples.

Results

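The 42 genes described here are active in the G2 and M phases of the cell cycle, when a cell that has copied its DNA builds a spindle and divides. They were taken as a fixed list of gene symbols, and all 42 were found among the 32285 genes counted in both libraries. Cells came from the leaflets of the mitral valve, taken from mouse embryos late in gestation (E17.5). The control library came from wild type embryos. The mutant library came from embryos labelled Nfatc1-Cre, Dicer loxp/loxp, in which a Cre recombinase driven from Nfatc1, a gene of the endocardial lineage, acts on loxP sites in both copies of Dicer1, the enzyme that cuts microRNA precursors. Each library pools 3 to 4 hearts, dissociated with 0.05% trypsin and sorted on a viability dye, and was read by droplet single-cell RNA sequencing from the 3′ end. There was 1 library per genotype, so no test between genotypes was possible. Genotype, pool of embryos and library preparation cannot be told apart, and every interval below is a 95% interval that covers counting error only.

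Cyclin-dependent kinase 1, encoded by Cdk1, drives entry into mitosis once it is bound by cyclin A2 or the B cyclins. Kinases such as PLK1 and the Aurora kinases then build the spindle, the kinetochore proteins tie chromosomes to it, and the checkpoint proteins BUB1, BUB3 and TTK hold the cell until every chromosome is attached. The anaphase-promoting complex, switched on by CDC20 and fed by UBE2C, ends mitosis by marking the cyclins for destruction, and most of these transcripts are made only in cells that are about to divide. In fetal heart valves, both the interstitial cells and the endothelium that covers them still divide.

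UMIs, the counts of single captured transcripts, numbered 70221728 in the control and 69475632 in the mutant library. After filtering, 10347 control cells (median 5671 UMIs) and 6190 mutant cells (median 9490.5) remained, so the mutant cells were read more deeply. The libraries shared 19 cell barcodes, of which 11 belonged to kept cells of both. The pools differed in sex: 93.5% of control cells carried Xist transcripts and none of 4 Y-linked genes (female-type), against 42.5% of mutant cells, and 37.1% of mutant cells were male-type. Classes of cells were named from marker genes after clustering without the cell cycle genes, so the 42 genes did not define them. All 12 stromal markers (collagens and other genes of interstitial cells and fibroblasts) and all 11 endothelial markers were found in at least 10% of the cells of their class in both libraries, and of the 8 valve endothelial markers 6 were found so in the control and 8 in the mutant library.

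Capillary endothelial-like cells carried the most G2 and M phase RNA of the larger classes, and epicardial-like cells the least. Levels are given in CPM, the UMIs of a gene relative to all UMIs of the same cells, without scaling by gene length. Summed over the 42 genes, capillary endothelial-like cells held 4565 CPM in the control library (interval 4523 to 4608) and 5281 in the mutant library (5242 to 5320). Mural-like cells, the smooth muscle cells and pericytes of vessels, held 3023 and 3464 CPM. Stromal-like cells, the largest class with 5025 control and 2267 mutant cells, held 2726 (2708 to 2744) and 3398 (3376 to 3421). Macrophage-like cells held 2312 and 2180, valve endothelial-like cells 1921 and 1857, and arterial endothelial-like cells 1596 and 1978. Epicardial-like cells, only 125 and 45 in number, held 478 CPM in the control library and 1645 in the mutant library. Among these 7 classes and the cardiomyocyte-like cells, the order in the control library ran from capillary through mural, cardiomyocyte, stromal, macrophage, valve endothelial and arterial to epicardial. No 2 neighbours in it had overlapping counting intervals, but these leave out the spread between cells and do not settle the order. The 101 control cells of the monocyte or dendritic class, at 1589 CPM (1480 to 1703), had an interval that overlapped that of the arterial class. In sums over a class, fewer dividing cells and less RNA per dividing cell cannot be told apart, so the cells were counted next.

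**Figure D1:**
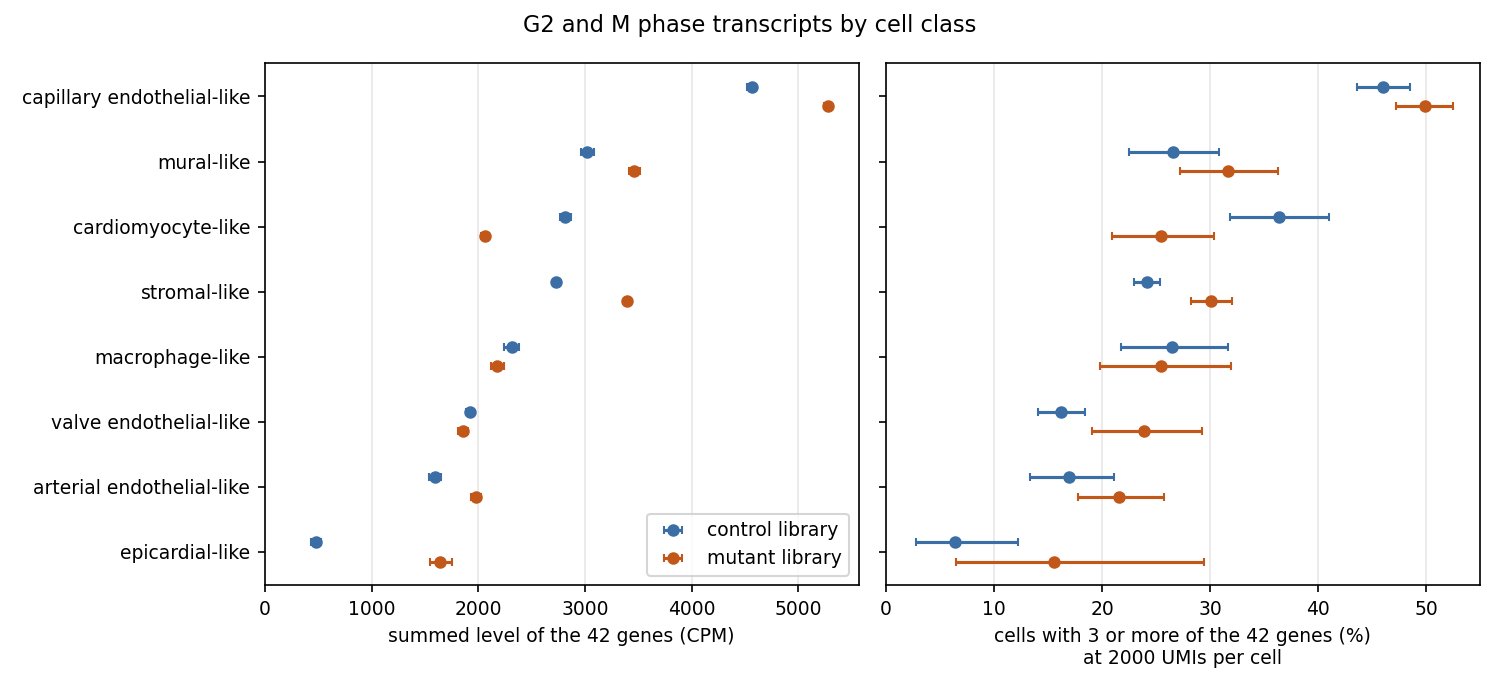
The summed level of the 42 genes in CPM (left) and the share of cells with 3 or more of them at 2000 UMIs per cell (right) for 8 classes, with the control library in blue and the mutant library in orange. Bars are 95% intervals for counting error; capillary endothelial-like cells sit at the top of both panels and epicardial-like cells at the bottom.

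For a fair count of cells, each cell was thinned at random to 2000 UMIs, which left out 512 control and 418 mutant cells that had fewer. A single UMI of any of the 42 genes says little: 50.4% of control epicardial-like cells held at least 1, against 64.8% of control stromal-like cells, and no class here is known to lack dividing cells. A cell was therefore counted when it held at least 3 different members. That share was 46.0% of control (43.5 to 48.5) and 49.8% of mutant capillary endothelial-like cells (47.2 to 52.4). It was 24.1% (22.9 to 25.3) and 30.1% (28.2 to 32.0) in stromal-like cells, and 6.4% (2.80 to 12.2) and 15.6% (6.49 to 29.5) in epicardial-like cells. The control order by share was not that by level. Cardiomyocyte-like cells stood at 36.3% (31.9 to 40.98), above mural-like cells at 26.5% (22.5 to 30.8). Macrophage-like cells were at 26.5% (21.7 to 31.7). Valve and arterial endothelial-like cells were at 16.2% (14.1 to 18.4) and 16.9% (13.3 to 21.1), with overlapping intervals. Without thinning the stromal-like shares would be 49.0% and 72.8%, a gap that also holds the greater depth of the mutant library. Near the threshold, 599 control stromal-like cells held exactly 2 members and 236 exactly 3.

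Inside a class, cells were sorted by the number of members they held at 2000 UMIs. Levels of the same genes rise over such groups by construction, so they are a description. In the control stromal-like class, 35.2% of cells held no member at 2000 UMIs and together carried 261 CPM of the 42 genes. The 24.1% with 3 or more members carried 8298 CPM, and the 10.6% with 10 or more carried 13595 CPM. One control cell held 31 members at once. Cells with 3 or more members were also larger in RNA, with a median of 7516 UMIs in the control stromal-like class against 5698 in cells with none.

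The 42 genes were not equally restricted to such cells. For each gene, its UMIs were divided between cells with 3 or more of the other 41 genes and all other cells. Kif2c, a kinesin that takes microtubules apart at the centromere, had 97.6% of its UMIs in cells with 3 or more other members in the control library and 95.7% in the mutant library. Nusap1, a spindle protein, had 96.6% and 97.1%, Hmmr, a spindle-pole protein, 96.3% and 97.8%, and Ccnb1, cyclin B1, 95.3% and 96.4%. Mki67, the gene of the proliferation marker Ki-67, had 93.7% and 94.3%. At the other end Bub3, a checkpoint protein, had 40.02% and 49.9%, and its level was 166 CPM in cells with 3 or more other members against 80.5 CPM in cells with none (control). Hjurp, the chaperone that loads the centromeric histone, had 49.3% and 59.9%, Ckap5, a microtubule polymerase, 54.9% and 63.2%, and Smc4, a condensin subunit, 59.6% and 68.9%. Cdk1 lay between, at 74.7% and 80.1%. The 5 genes with the lowest shares came in the same order in both libraries. In all 42 genes the level was higher in cells with 3 or more other members, from 2.07-fold for Bub3 to 120-fold for Nusap1 in the control library. Hjurp also stood apart in an unnamed cluster of 132 control and 203 mutant cells with medians of 1248.5 and 1531 UMIs, where it reached 636 and 751 CPM, against 114 and 143 in stromal-like cells. The mean mitochondrial share was 11.6% in the 24 mutant cells of that cluster with 3 or more members, against 4.31% in such mutant cells of all classes; its part in the result was not tested.

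**Figure D2:**
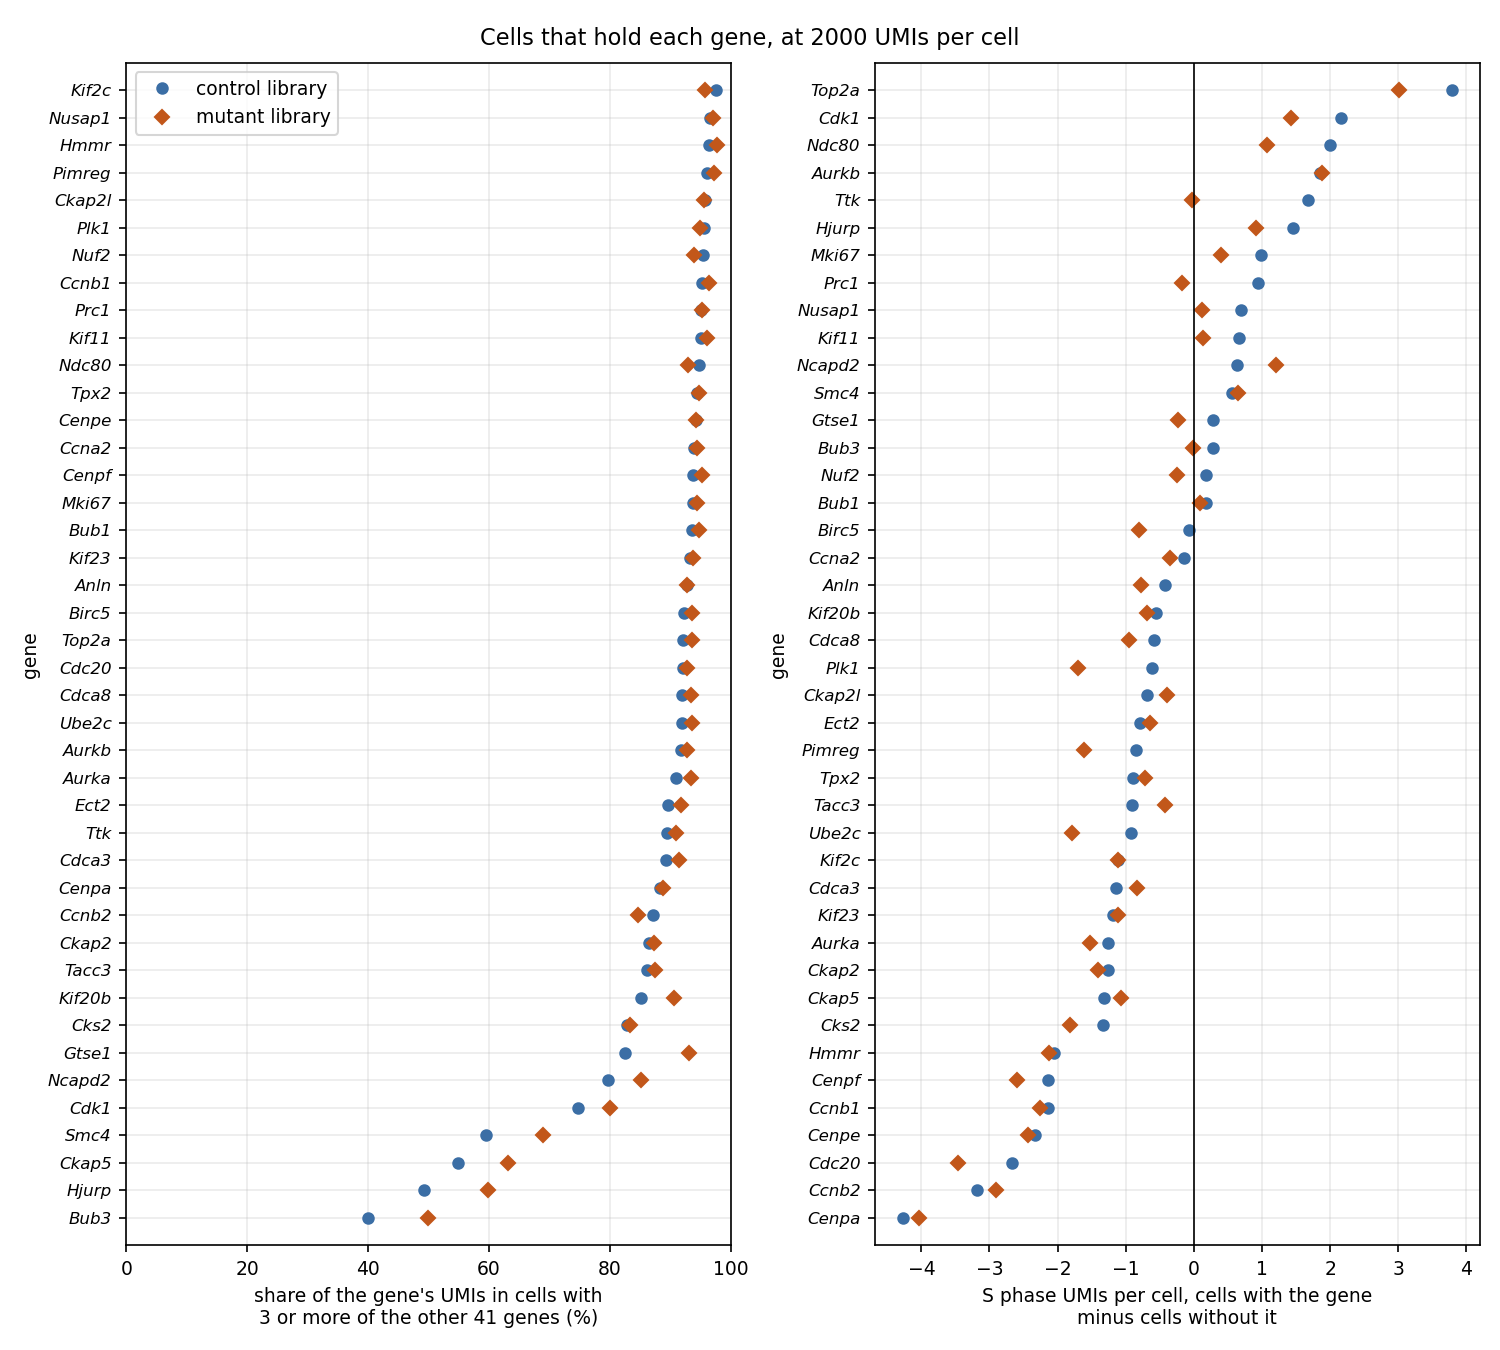
Left, the share of each gene's UMIs that fell in cells with 3 or more of the other 41 genes. Right, the mean S phase UMIs of such cells with the gene minus those without it, at 2000 UMIs per cell, for the control (circles) and mutant library (diamonds). Bub3, Hjurp, Ckap5 and Smc4 stand apart on the left, and Cenpa and Top2a mark the ends on the right.

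Cells with and without a UMI of each gene were then compared for the S phase RNA they held, since transcripts of DNA replication are made before those of mitosis. Among control cells with 3 or more other members, those with a UMI of Top2a, the topoisomerase that untangles copied DNA, held 8.20 UMIs of 44 S phase genes and those without it 4.41. In the mutant library the values were 7.94 and 4.93. Cdk1 went the same way, with 7.72 against 5.57 (control) and 7.33 against 5.91 (mutant), as did Aurkb, the kinase of the chromosomal passenger complex, with 7.83 against 5.98 and 8.04 against 6.16. Ndc80, an outer kinetochore protein, gave 7.96 against 5.96 in the control library. Cenpa, the centromeric histone, went the opposite way: cells with it held 3.95 S phase UMIs and cells without it 8.23 (control), and 4.11 against 8.14 (mutant). Ccnb2, cyclin B2, gave 3.96 against 7.15, and Cdc20 4.13 against 6.80 in the control library. Cenpe, a kinetochore motor, Cenpf, a kinetochore protein, Ccnb1 and Hmmr also had fewer S phase UMIs beside them in both libraries, by 2.05 to 2.60 per cell. The sign of the difference was the same in both libraries for 37 of the 42 genes.

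Promoter sequences show what many of these genes share outside the counts. RefSeq promoters on GRCm38.p6, each 250 bases before to 50 after a start, were at hand for 37 of the 42 genes as 41 sequences. Smc4, Tpx2, Aurkb, Ccna2 and Pimreg had none. Textbook elements of late cell cycle promoters are the CCAAT box (letters CCAAT) and the cell cycle genes homology region, or CHR (searched as TTTGAA and as TTTAAA), both counted on either strand. The motifs were searched separately, so matches may share bases. A CHR was in 36 of the 41 sequences (87.8%) against 27.6% of all 32851 promoters, and a CCAAT box in 33 (80.5%) against 37.4%. Both were in 31 of the 41 (75.6%) against 10.7%, and at least 3 CCAAT boxes in 34.1% against 3.37%. The sequences of Bub3, Ect2, Gtse1 and Prc1 overlapped within each gene, so some matches were counted more than once. By gene, a CHR was found for 32 of the 37, a CCAAT box for 29 and both for 27. The median GC content was 59.7% for the members and 52.7% for all promoters. Nuf2, Nusap1 and Tacc3 had neither set of letters in the window. A match is a description of letters, not a measured site, and letters missing from the window say nothing about the factor. The 150 bases before the start are shown for a cyclin, a kinase and a chromosome gene with restricted RNA (Ccnb2, Plk1 and Top2a, with 87.2%, 95.6% and 92.0% of their control UMIs in cells with 3 or more other members). Those of the broadly spread Ckap5 follow, because they hold a CCAAT box and a CHR, as those of Plk1 and Top2a do. The 150 bases of Ccnb2 hold CCAAT boxes only, and its CHR matches lie outside them, at -167 and +5. Each printed stretch runs 5′ to 3′ along the gene, and capitals mark the CCAAT box and the CHR on either strand.
Ccnb2, chr9:70421555-70421704, minus strand: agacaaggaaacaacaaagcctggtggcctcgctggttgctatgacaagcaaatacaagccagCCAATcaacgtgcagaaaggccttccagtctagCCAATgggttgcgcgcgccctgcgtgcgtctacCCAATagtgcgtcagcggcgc
Plk1, chr7:122159285-122159434, plus strand: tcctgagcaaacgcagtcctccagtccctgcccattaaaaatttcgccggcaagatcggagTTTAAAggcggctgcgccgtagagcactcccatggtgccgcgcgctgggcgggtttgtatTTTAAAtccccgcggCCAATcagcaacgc
Top2a, chr11:99024190-99024339, minus strand: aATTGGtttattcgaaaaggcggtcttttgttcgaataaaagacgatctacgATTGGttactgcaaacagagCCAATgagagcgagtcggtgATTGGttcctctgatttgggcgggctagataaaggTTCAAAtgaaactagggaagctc
Ckap5, chr2:91526612-91526761, plus strand: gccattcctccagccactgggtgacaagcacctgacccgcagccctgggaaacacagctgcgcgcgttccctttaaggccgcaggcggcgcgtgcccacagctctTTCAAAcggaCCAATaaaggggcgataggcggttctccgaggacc

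Before the genotypes were compared, the targeted gene was read in each class. Dicer1 (chromosome 12, 104687742 to 104751952, GRCm38, minus strand) stood at 89.9 CPM in control and 39.7 in mutant valve endothelial-like cells (log2 ratio -1.17, interval -1.47 to -0.90). In stromal-like cells it was 66.8 and 52.3, a log2 ratio of -0.35. In capillary endothelial-like cells it was 75.4 and 56.9 (-0.41, interval -0.55 to -0.26). In arterial endothelial-like cells it was 81.5 and 73.2, and in cardiomyocyte-like cells 51.9 and 45.7, with intervals of the ratio that reached across 0. In mural-like cells it was 53.0 and 50.9, and in macrophage-like cells 50.8 and 49.5. The deleted exons are not named in the labels, and 3′ reads outside a deleted stretch would not show the deletion.

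Stromal-like and endothelial-like cells both held more G2 and M phase RNA in the mutant library, by less than 1.5-fold for nearly all of the genes. In stromal-like cells the sum was 2726 CPM in the control and 3398 in the mutant library, a log2 ratio of 0.32 (0.30 to 0.33). A mean level of at least 10 CPM was reached by 41 of the 42 genes, with Gtse1, a p53 regulator on microtubules, below it at 3.50 and 6.19 CPM. All 41 had a ratio above 0, with a median log2 of 0.33, where 4469 of all 8558 genes at the same level lay above 0 and their median was 0.01. No member was 1.5-fold higher and none 1.5-fold lower, where 1.17% and 1.4% of all genes were. The endothelial-like sum was 3294 and 4133 CPM (log2 0.33, interval 0.31 to 0.34). Again 41 of 41 genes lay above 0, with a median of 0.34 against 0.02 for all 8406 genes. Only Kif11, the motor that pushes spindle poles apart, was 1.5-fold higher, at 42.9 and 64.9 CPM, and none was lower, with 1.34% higher and 2.64% lower among all genes.

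By role, the anaphase-promoting complex genes Cdc20 and Ube2c had the largest summed ratio in stromal-like cells, with a log2 of 0.48 (0.43 to 0.54), and the checkpoint genes the smallest, 0.15 (0.09 to 0.22). Most of the checkpoint sum was Bub3, at 103 of 138 control CPM and a ratio of 0.11, while Bub1 had 0.24 and Ttk 0.35. Cdk1 was at 88.0 CPM in control and 126 in mutant stromal-like cells (log2 0.52), and at 123 and 179 among endothelial-like cells (0.54). Ccna2, cyclin A2, was at 46.7 and 66.6 CPM in stromal-like and 60.6 and 85.3 in endothelial-like cells. Ccnb1 was at 39.5 and 55.8, and then at 48.7 and 68.2. Ccnb2 showed a smaller difference in stromal-like cells, 54.0 and 65.0 CPM (log2 0.27), than in endothelial-like cells, 79.1 and 112 (0.51), although the difference between classes was not tested. These 4 genes, the CDK1 kinase and its cyclins, were higher in the mutant library in both classes with intervals clear of 0. Cks2, the small subunit that binds CDK1, was at 153 and 182 CPM in stromal-like cells. Ube2c, the ubiquitin-conjugating enzyme of the anaphase-promoting complex, was at 124 and 179 CPM in stromal-like and 155 and 221 in endothelial-like cells. Cdc20, its activator, was at 43.9 and 56.0, and then at 67.3 and 85.9.

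Among the mitotic kinases, Plk1 was at 19.4 and 24.9 CPM in stromal-like cells, Aurka, which acts at the spindle poles, at 14.5 and 18.6, and Aurkb at 27.3 and 36.9. Birc5, the survivin subunit that Aurora B needs at the centromere, was at 123 and 139 CPM (log2 0.18, interval 0.11 to 0.25) and, among endothelial-like cells, at 177 and 208. Ttk, the checkpoint kinase, was at 13.7 and 19.97 CPM there (log2 0.54, interval 0.32 to 0.78). The centromere gene Cenpa was among the least different, at 130 and 138 CPM in stromal-like cells (0.09, interval 0.02 to 0.15), and Cenpe and Cenpf had ratios of 0.28 and 0.27. Hmmr was at 52.8 and 63.3 CPM. Of the cytokinesis genes, Kif23, the motor of the midbody, was at 49.1 and 71.8 CPM in endothelial-like cells (0.55). Top2a was at 206 and 278 CPM in stromal-like cells (0.43, interval 0.38 to 0.48) and Mki67 at 152 and 187 (0.30, 0.25 to 0.36). The condensin gene Ncapd2 was at 22.5 and 32.6 (0.54, 0.39 to 0.68), the highest ratio of the 41 genes in the class.

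The lowest stromal-like ratio belonged to Ckap5, and Bub3 was also among the 4 lowest. Ckap5 was at 84.6 and 86.9 CPM in stromal-like cells, a log2 ratio of 0.039 (-0.043 to 0.12), and at 77.2 and 80.9 in endothelial-like cells (0.068, -0.034 to 0.17). Bub3 was at 103 and 112 CPM in stromal-like cells (0.11, 0.04 to 0.18). In endothelial-like cells Kif2c gave 0.15, Cenpa 0.16 and Hjurp 0.16, the other low values of that class. Both intervals of Ckap5 reached across 0, as did that of Kif2c (-0.041 to 0.34).

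**Figure D3:**
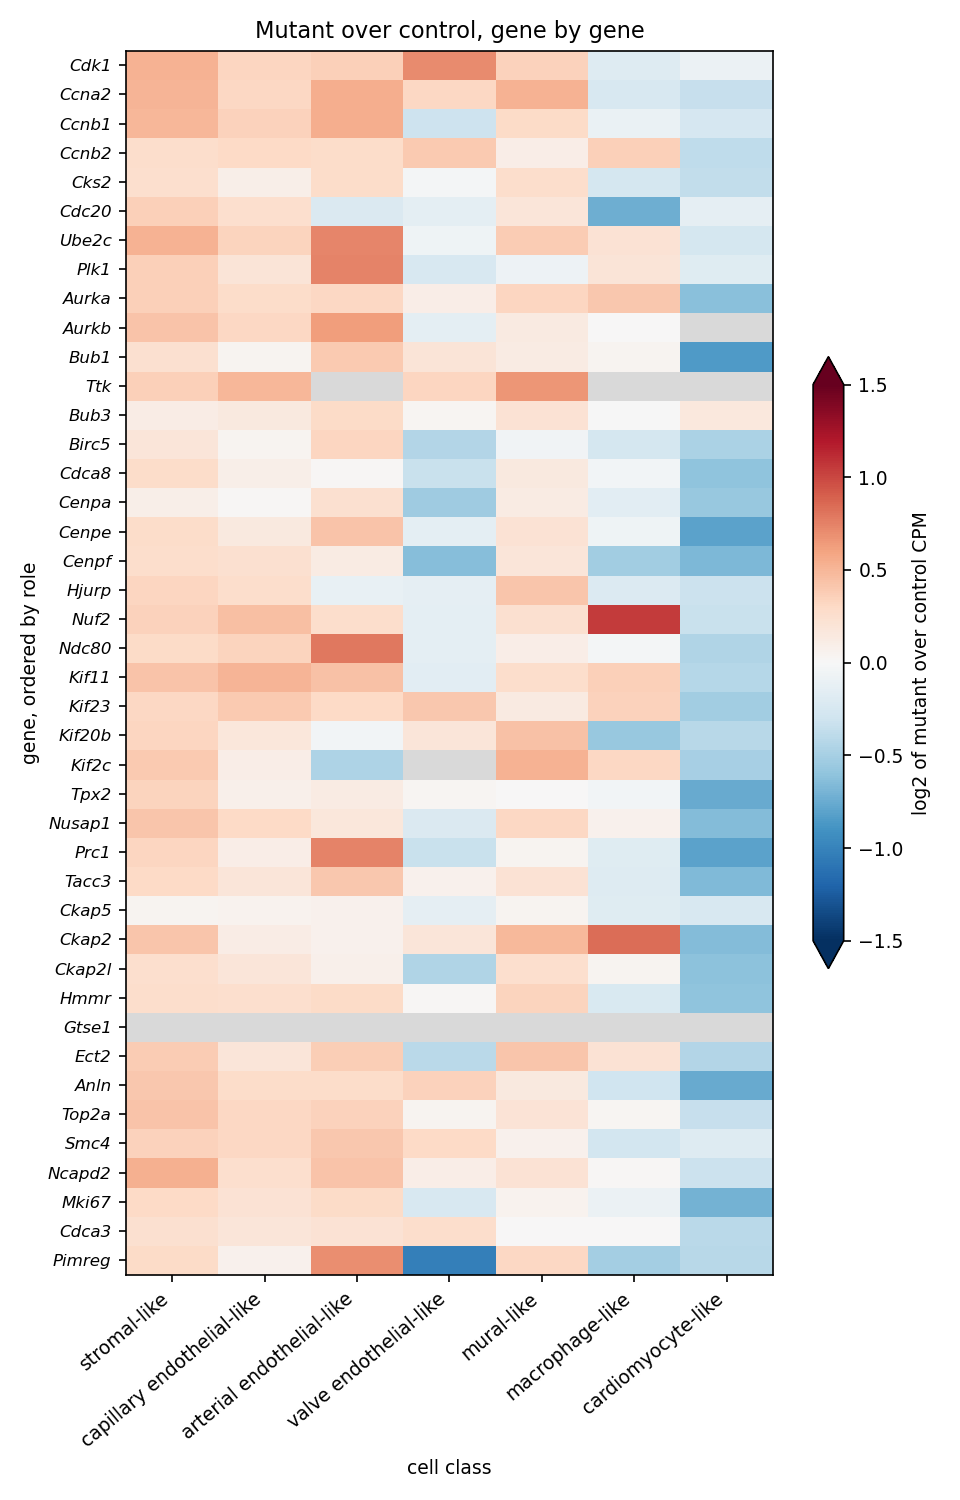
Each of the 42 genes (rows, ordered by role) in 7 classes (columns), coloured by the log2 of mutant over control CPM. Red is higher and blue lower in the mutant library, and grey marks a mean below 10 CPM; apart from grey Gtse1, every gene is above 0 in the stromal-like and capillary endothelial-like columns, and in the cardiomyocyte-like column only Bub3 is.

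The share of cells with 3 or more members differed between the libraries, while the summed level within such cells was nearly even in both main classes. Within stromal-like cells with 3 or more members, 1193 in the control and 672 in the mutant library, the summed level was 8298 and 8580 CPM, a log2 ratio of 0.048 (0.034 to 0.063). Within 1031 and 903 endothelial-like cells it was 8287 and 8262 CPM. Single members went both ways behind these even sums. In such stromal-like cells Cdk1 had a log2 ratio of 0.27 (0.19 to 0.35) and Cenpa one of -0.22 (-0.28 to -0.15). In such endothelial-like cells they had 0.22 (0.14 to 0.30) and -0.20 (-0.27 to -0.12). The valve endothelial-like part of that class was not even and is given below. The share of such cells was 31.6% of control endothelial-like cells (30.01 to 33.2) and 40.6% of mutant ones (38.5 to 42.7). Cells with 10 or more members made up 10.6% of control and 14.8% of mutant stromal-like cells. These cells were chosen by the members themselves, so their levels are a description.

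The stromal-like difference was largest in 1 of 6 clusters. In cluster 0, led by Car3 and Wnt16, the sum was 2885 CPM in the control and 5621 in the mutant library, a log2 ratio of 0.96 (0.94 to 0.99), and 23.1% (21.1 to 25.1) of 1770 control and 44.8% (39.8 to 49.8) of 402 mutant cells held 3 or more members. Cluster 5, led by Abi3bp and Col2a1, gave 0.46, cluster 3, led by Sfrp2 and Tnc, 0.27, and cluster 7, led by Sct and Ccn3, 0.17. Cluster 4, led by Dlk1 and Smoc2, went the other way, at 2456 and 2095 CPM (-0.23), as did cluster 13, led by Dpep1 and Fmo2, at 1135 and 777 (-0.55). Left without cluster 0, the stromal-like sum was 2641 and 2860 CPM, a log2 ratio of 0.12 in place of 0.32, and the shares were 24.7% and 26.9%. With each cluster given the same weight in both libraries, the ratio was 0.49. In endothelial-like cells the makeup of the class moved with the result: capillary endothelial-like cells, the richest of the larger classes in these transcripts, were 16.7% of control and 24.8% of mutant cells. Without them the endothelial-like sum was 1945 and 2006 CPM (0.044), while the share of cells with 3 or more members still differed, at 17.4% and 23.9%. With equal cluster weights the ratio of the sums was 0.16.

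**Figure D4:**
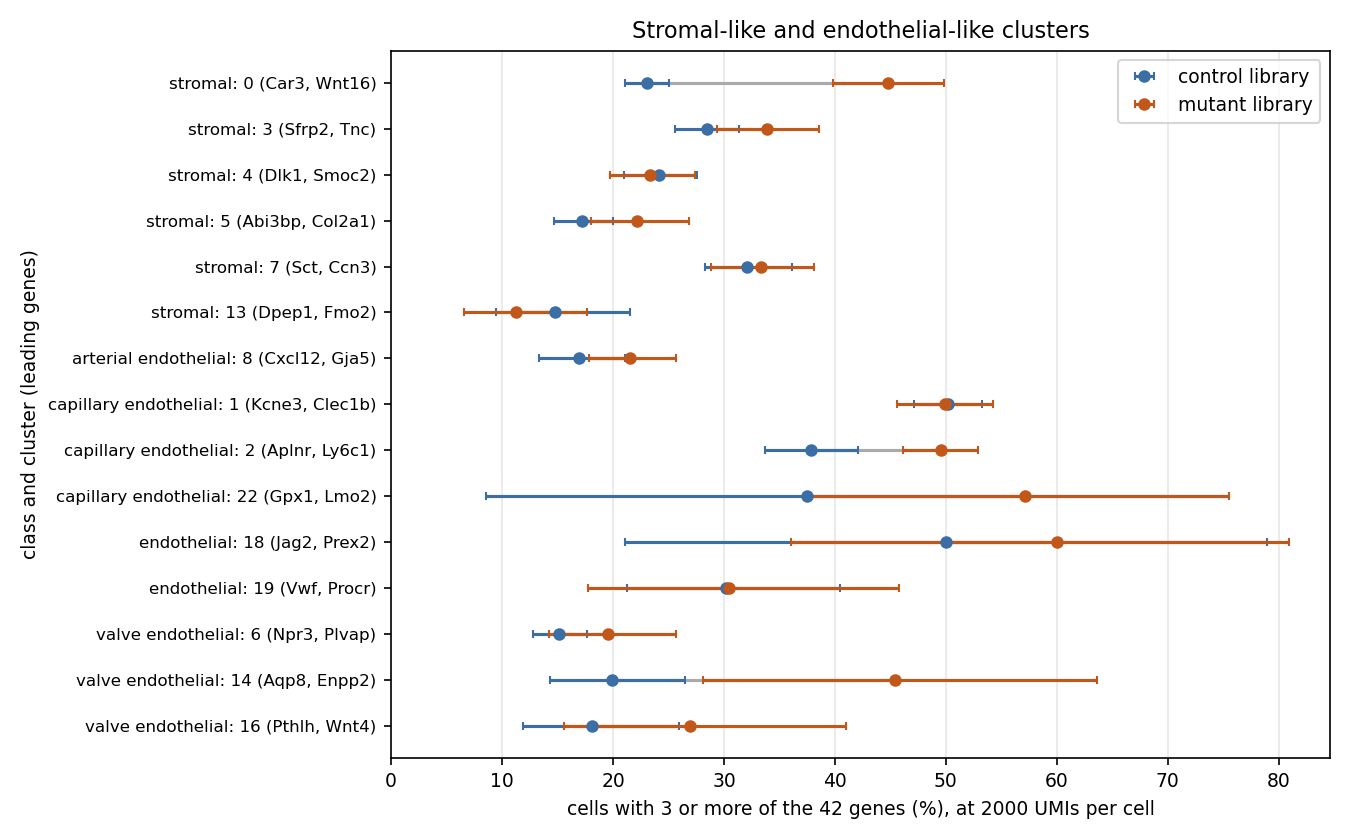
The share of cells with 3 or more of the 42 genes, at 2000 UMIs per cell, in each stromal-like and endothelial-like cluster with at least 20 cells in both libraries, with 95% intervals. Fewer cells reached 2000 UMIs: the shares rest on 8 control and 28 mutant cells in cluster 22, and on 12 and 20 in cluster 18. Grey lines join the libraries; stromal cluster 0 shows 23.1% in the control and 44.8% in the mutant library, while capillary cluster 1 shows 50.2% and 49.9%.

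Within capillary endothelial-like cells the sum was 4565 and 5281 CPM, a log2 ratio of 0.21 (0.19 to 0.23), and all 41 genes at the level floor lay above 0. None was 1.5-fold higher or lower, where 0.57% and 0.273% of all genes were. Kif11 was at 59.9 and 85.1 CPM, Ttk at 17.4 and 24.6, and Nuf2, the partner of NDC80, at 38.5 and 52.8, while Cenpa stood at 225 and 228 and Birc5 at 268 and 276. Capillary cluster 1, led by Kcne3 and Clec1b, held 4572 and 4608 CPM and gave a log2 ratio of 0.011 (-0.012 to 0.035). Cluster 2, led by Aplnr and Ly6c1, held 4571 and 5824 (0.35).

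Because the mutant pool mixed embryos of both sexes, the 2 kinds of mutant cells were set against female-type control cells. In capillary endothelial-like cells the sum was 4649 CPM in female-type control, 6202 in female-type mutant and 4756 in male-type mutant cells, log2 ratios of 0.42 and 0.033. In stromal-like cells the values were 2777, 3657 and 3312, ratios of 0.40 and 0.25. In mural-like cells they were 3038, 3849 and 2961, ratios of 0.34 and -0.037. In arterial endothelial-like cells they were 1597, 2199 and 1780. The male-type mutant cells were near the female-type control level in the capillary and mural classes and above it in the stromal class. The remaining mutant cells, which could not be typed, stood at 2737 CPM in the stromal class (-0.021). They held 4477 in the capillary class (-0.054) and 3833 in the mural class (0.34), and so by level followed neither kind throughout. The stromal shares of thinned cells with 3 or more members did not repeat this pattern. They were 24.3% (23.1 to 25.6) in female-type control, 30.2% in female-type mutant and 30.7% in male-type mutant cells. In untyped mutant cells the share was 28.4%, with a wide interval (23.6 to 33.5) that held the control value. Capillary shares, in the same order, were 46.7%, 54.6%, 46.7% and 46.8%. Female-type and male-type cells stem from separate embryos, so sex and embryo cannot be told apart, and neither was tested.

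**Figure D5:**
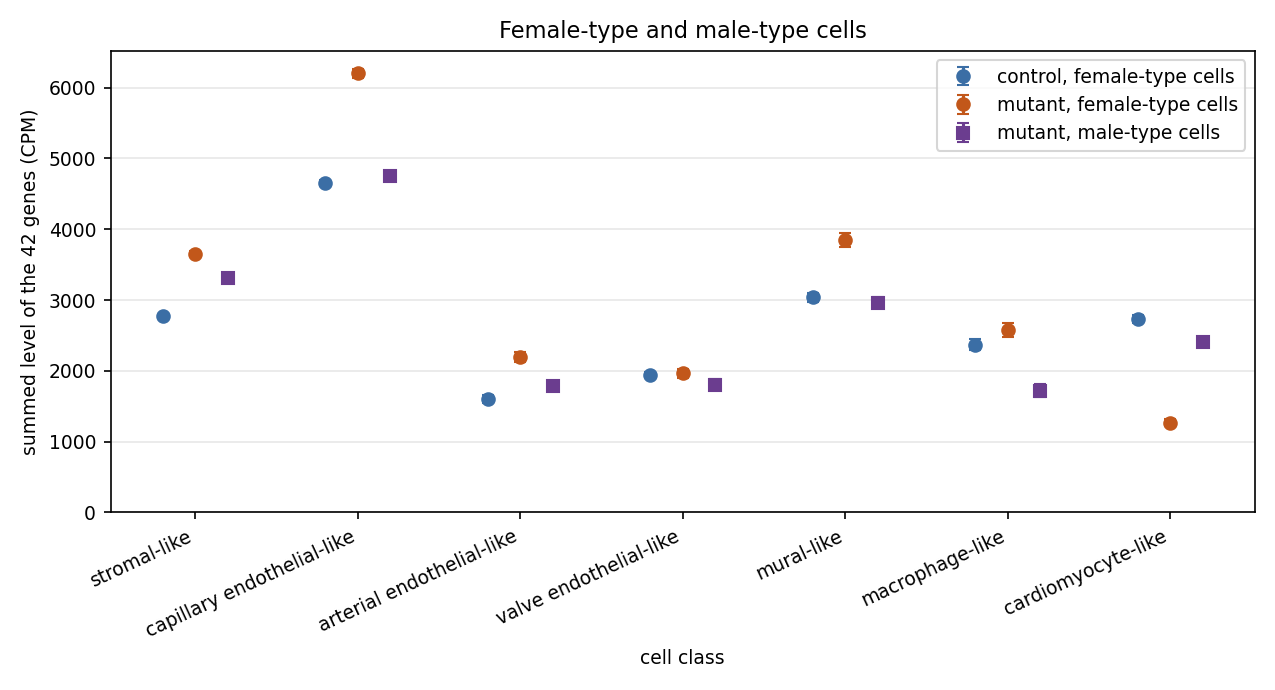
The summed level of the 42 genes in CPM in 7 classes for female-type control cells, female-type mutant cells and male-type mutant cells, with 95% counting intervals. Female-type mutant cells are highest in 5 of the 7 classes, overlap female-type control cells in the valve endothelial-like class and are lowest among cardiomyocyte-like cells, at 1267 CPM.

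Valve endothelial-like cells, the class where Dicer1 was most reduced, showed no common direction. The sum was 1921 and 1857 CPM, a log2 ratio of -0.049 (-0.094 to -0.0038), while the share of cells with 3 or more members was 16.2% (14.1 to 18.4) in 1156 control and 23.9% (19.0 to 29.2) in 285 mutant cells. Since the share goes against the level, no order between the libraries is read from it. The share stayed higher in the mutant library under every alternative run for it, while the sum changed sign under some. Of the 40 genes at the level floor, 18 lay above 0, and the median log2 was -0.094 against 0.051 for all 8640 genes. Cdk1 was 1.5-fold higher, at 57.3 and 94.0 CPM (0.71, interval 0.49 to 0.94), the 1 member of 40, where 7.41% of all genes were. Pimreg, a mitotic regulator, was lower at 18.0 and 8.72 CPM (-1.03, -1.71 to -0.44), as was Cenpf at 116 and 74.3 (-0.64, -0.86 to -0.42), 2 of 40 where 4.75% of all genes were. Cenpa was at 76.9 and 53.0 and Birc5 at 70.5 and 52.0, whereas Ccnb2 was at 34.1 and 44.6 and Smc4 at 185 and 227. Top2a stood at 119 and 122.

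Among valve endothelial-like cells with 3 or more members, 187 control and 68 mutant cells, the summed level was 7900 and 5289 CPM. The log2 ratio was -0.58 (-0.63 to -0.53), against 0.048 in such stromal-like and 0.062 in such capillary endothelial-like cells. These cells too were chosen by the members themselves, so their levels are a description. The interval leaves out the spread between cells, and 21 of the 68 mutant cells held 10 or more members. Every gene but Cdk1 (0.0071) lay below 0 there, with a median of -0.50, and Cenpf was at 576 and 250 CPM and Cenpa at 348 and 173. Their S phase level was 2772 and 2797 CPM. Of the mutant cells 28 held exactly 3 members, and of the control cells 72. Cluster 16, led by Pthlh and Wnt4, with 133 control and 52 mutant cells, held 2753 and 1904 CPM (-0.53), and without it the class ratio was 0.039 (-0.013 to 0.090). It was also above 0 with called doublets kept (0.11) and as a mean over draws of 2000 UMIs per cell (0.059).

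Cardiomyocyte-like cells went the other way from stromal-like cells. The sum was 2817 CPM in the control and 2067 in the mutant library, a log2 ratio of -0.45 (-0.48 to -0.41), and 36.3% (31.9 to 40.98) against 25.4% (20.9 to 30.4) of cells held 3 or more members. Of 39 genes at the floor, 14 were 1.5-fold lower, where 1.82% of all genes were, and none was 1.5-fold higher, where 1.16% were. Bub3 alone lay above 0, at 43.4 and 48.5 CPM. Bub1 was at 27.5 and 15.2 CPM, Cenpe at 48.0 and 27.5, Prc1, the bundler of the central spindle, at 82.2 and 47.1, and Anln, the anillin of the cleavage furrow, at 44.0 and 26.0. Mki67 was at 90.7 and 55.3, Cenpf at 238 and 149, and Cdk1 at 44.2 and 41.7. The lowest level was in 125 female-type mutant cells, which held 1267 CPM against 2732 in female-type control cells (-1.11). The 141 male-type mutant cells held 2411 (-0.18), and 91 mutant cells of neither type 2722. Both larger cardiomyocyte-like clusters gave ratios below 0, -0.45 and -0.54.

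The remaining classes held fewer cells. Arterial endothelial-like cells gave a log2 ratio of 0.31 (0.25 to 0.37), with 6 of 40 members 1.5-fold higher, where 2.64% of all genes were, and none lower, where 1.84% were. The 6 were Ndc80, Plk1, Ube2c, Prc1, Pimreg and Aurkb, with Ube2c at 62.7 and 105 CPM and Plk1 at 9.87 and 16.9. Mural-like cells gave 0.20 (0.16 to 0.23), with 1 of 41 members higher (Ttk, 11.6 and 18.6 CPM) where 2.39% of all genes were, and none lower where 0.795% were. Macrophage-like cells gave -0.09 (-0.15 to -0.02), with Nuf2 and Ckap2 higher, where 3.29% of all genes were, and Cdc20 lower at 31.5 and 18.9 CPM, where 4.06% were. The kinds of mutant macrophage-like cells differed in sign against female-type control cells. Female-type cells gave 0.12 (0.044 to 0.19), male-type cells -0.46 (-0.55 to -0.37) and untyped cells -0.097. In epicardial-like cells Top2a rested on 14 UMIs in the control and 110 in the mutant library, and Mki67 on 7 and 49. With 125 and 45 cells, of which 8 and 7 held 3 or more members, the epicardial-like ratio of 1.78 rests on very few cells.

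Genes of the same processes outside the 42 were read from lists. Of 55 other G2 and M genes, 48 reached the floor in stromal-like cells, with a median log2 ratio of 0.31. Of these, 1 was 1.5-fold higher, where 1.17% of all genes were: Kpna2, an importin, at 11.6 and 19.1 CPM. In endothelial-like cells the median over 47 genes was 0.31. Kpna2, at 16.3 and 25.2 CPM, was again the 1 gene 1.5-fold higher, where 1.34% of all genes were. The 44 S phase genes had smaller ratios, with medians of 0.19 in stromal-like, 0.18 in endothelial-like and 0.03 in capillary endothelial-like cells, and -0.41 in cardiomyocyte-like cells, where 9 of 30 were 1.5-fold lower, against 1.82% of all genes. Of 12 cell cycle inhibitors, 10 reached the floor in stromal-like cells. Cdkn1a, the p21 inhibitor, was at 9.76 and 20.5 CPM there, a log2 ratio of 1.07, and Btg2, an antiproliferative gene, at 75.3 and 136, and then at 100 and 184 in endothelial-like cells. In stromal-like cells 2 of the 10 inhibitors, Cdkn1a and Btg2, were 1.5-fold higher and none lower, where 1.17% and 1.4% of all genes were. Cdkn1c, the p57 inhibitor, was at 363 and 512 CPM there. In the pooled endothelial-like class it was at 867 and 464, but the makeup of that class moved with it: valve endothelial-like cells, with an inhibitor sum of 2617 CPM in the control library, were 11.7% of control and 4.77% of mutant cells. Within the capillary class Cdkn1c was at 193 and 138 CPM (-0.48), less than 1.5-fold apart.

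Several members overlap another counted gene on the other strand: Ube2c with Tnnc2, a troponin gene of muscle, Cdc20 with Elovl1, Ccna2 with Exosc9, Prc1 with Rccd1, Nusap1 with Oip5, Bub3 with Fgfr2 and Tacc3 with Tmem129. Anln and Ncapd2 overlap a predicted gene on the same strand. How reads shared by such pairs were assigned is not given in the sources used here. On GRCm38, Top2a (ENSMUSG00000020914) lies on chromosome 11 from 98992943 to 99024189, Cdk1 (ENSMUSG00000019942) on chromosome 10 from 69335146 to 69352938, Bub3 (ENSMUSG00000066979) on chromosome 7 from 131560222 to 131571895, and Cenpa (ENSMUSG00000029177) on chromosome 5 from 30666777 to 30674830.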

How the data were processed

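Each deposited matrix gives whole UMI counts for a gene in a barcode. Cell Ranger 5.0.0 and mm10 are named in the submitters' processing notes. The counting options and annotation release are not given in the sources used here. Barcodes were kept with at least 500 genes, 1000 UMIs and under 20% mitochondrial UMIs. Doublets called by Scrublet in scanpy 1.11.5 (3.83% of control and 3.33% of mutant cells, against 8.61% and 5.12% expected) were removed, so doublets remain. Both libraries were clustered together (2000 variable genes, 30 components, 15 neighbours, leidenalg 0.10.2, resolution 0.8) without 664 cell cycle genes: 260 from lists and families and 404 that followed the summed members with a correlation above 0.15. A cluster was named for the class with the highest marker score when at least 3 of its markers were found in at least 10% of cells and 1.5-fold above the median cluster. It stayed unnamed when another class had more markers among its 10 leading genes, or when it was shallow with no own marker among them.

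CPM was computed from UMIs added up over the cells of a class in a library. Log2 ratios had 0.5 counts added for single genes, with exact conditional Poisson intervals. CPM carries exact Poisson and shares exact Clopper-Pearson intervals, at 95%. UMI totals set the precision and no test between genotypes was made. Members were counted at a mean of at least 10 CPM and 1.5-fold. Thinning was 1 random draw per cell. The code for ratio intervals was tested on simulated counts. Thinning was checked in control cells by comparing thinned with expected member UMIs. Promoters are RefSeq sequences, and coordinates come from GENCODE M21 with numpy 2.4.6, scipy 1.17.1 and pandas 2.3.3 used throughout. Named with values were 16 members chosen by role (Mki67, Top2a, Cdk1, cyclins, Cdc20, Ube2c, kinases, Birc5, Cenpf, Cenpe, Hmmr, Bub3), the 4 highest and 4 lowest ratios in stromal-like and endothelial-like cells, and up to 4 genes of each other list. Further members named beside them were chosen after their values were seen. The members, lists and rules were chosen with earlier results of these data known. Alternatives were a stricter filter, no doublet removal, resolution 1.5, cell cycle genes kept, female-type cells only, other thinning, floors and member thresholds. Equal cluster weights and leaving out clusters were added after seeing the data.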

Additional observations from a re-analysis of the deposited data

How the results depend on the processing

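The stromal-like and endothelial-like log2 ratios of the summed level stayed above 0 under every alternative run, and the valve endothelial-like one did not. The stromal-like ratio (0.32) was 0.23 with a stricter cell filter, 0.34 without doublet removal, 0.36 at resolution 1.5, 0.40 with cell cycle genes kept in the clustering, 0.40 in female-type cells, 0.49 with equal cluster weights and 0.12 without cluster 0. The endothelial-like ratio (0.33) was 0.36 without doublet removal, 0.47 in female-type cells, 0.35 as a mean over draws of 2000 UMIs, 0.31 after the median of all genes was subtracted, 0.16 with equal cluster weights and 0.044 without the capillary cells. The valve endothelial-like ratio (-0.049) reversed to 0.11 without doublet removal, 0.012 in female-type cells, 0.059 as a mean over draws and 0.039 without cluster 16, and was -0.10 after the median was subtracted. The cause was not tested. A change of filter, doublet removal, resolution or clustering genes meant that cells were clustered and named anew, so the classes held other cells. The main run had 5025 control stromal-like cells. There were 3607 with the stricter filter, 4184 without doublet removal, 4595 at resolution 1.5 and 4502 with cell cycle genes kept. What the change of cells added to the values was not tested. The control stromal-like level (2726 CPM) was 2431 with the stricter filter, 2593 without doublet removal, 2699 at resolution 1.5, 3122 with cell cycle genes kept and 2777 in female-type cells. The endothelial-like level (3294 CPM) was 3329, 3173 and 3336 with the stricter filter, without doublet removal and in female-type cells. The log2 ratio of shares (0.32 and 0.36) was 0.20 and 0.12 at 4000 UMIs, 0.57 for stromal-like cells not thinned, and 0.23 for endothelial-like cells with at least 2 members. It was 0.25 for endothelial-like cells with equal cluster weights and 0.12 for stromal-like cells without cluster 0. The valve endothelial-like share (16.2% and 23.9%) stayed higher in the mutant library throughout. It was 10.0% and 13.6% at 1000 UMIs, 35.1% and 39.4% at 4000 UMIs, and 15.9% and 23.2% without cluster 16.

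The count of members 1.5-fold higher in stromal-like cells (0) was 5 with cell cycle genes kept (1.62% of all genes in that setting), 4 in female-type cells (1.14%), 1 as a mean over draws (1.90%) and 1 with no floor (9.08%). In endothelial-like cells (1) it was 0 with the stricter filter (1.41%) and after the median was subtracted (1.13%), 3 without doublet removal (1.33%) and as a mean over draws (2.09%), and 14 in female-type cells (2.13%). In valve endothelial-like cells (1 higher, 2 lower) it was 4 higher and 0 lower without doublet removal (6.70% and 4.30%), 2 and 1 in female-type cells (9.52% and 6.61%) and 2 and 0 as a mean over draws (8.66% and 4.35%). The count lower was 1 with the stricter filter (4.97%), with cell cycle genes kept (4.67%) and at a floor of 50 CPM (2.68%). No paired analysis was possible because each genotype has 1 library. Members under 10 CPM rest on few UMIs. Intervals of CPM and of log2 ratios leave out the spread between cells, and all intervals leave out the spread between embryos.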
